A study of Homo sapiens with 29 samples.

Results

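The genes described here are histone genes of the core classes and the linker class, most of them replication-dependent, taken as every gene whose current symbol starts with H1-, H2AC, H2BC, H3C or H4C. There were 100 of them among the 35579 genes of the RNA table, 76 of them protein-coding: 15 of class H1, 24 of H2A, 27 of H2B, 18 of H3 and 16 of H4. Of these, 19 had a mean of at least 10 TPM (a transcript's share of its library after division by transcript length, scaled to 1 fixed total) over the 29 libraries, 81 lay under that level, and 14 were listed at 0 in every library. The RNA came from PC9, a human lung adenocarcinoma line that depends on mutant EGFR, in 10 versions: PAR (the parental cells), KO (AXL knockout), WT (wild-type AXL put back), KD (a kinase-dead AXL put back) and the tyrosine-to-phenylalanine receptors Y634F, Y643F, Y698F, Y726F, Y750F and Y821F. All lines other than PAR descend from the KO cells, which were made by Cas9 cutting in the AXL kinase domain, and the returned receptors came in by lentivirus. Each line was left untreated (10 libraries), given the EGFR inhibitor erlotinib (E, 10 libraries) or erlotinib with the AXL-activating antibody AF154 (EA, 9 libraries, none from KO) for 24 h, with 1 polyadenylated-RNA library for each line and treatment. In bulk RNA, fewer cells of a type and less RNA per cell cannot be told apart.

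AXL was lowest in the KO line in every treatment that had one: 92.4 TPM untreated and 79.3 TPM with E, against at least 217 and 245 TPM in the other lines. AXL RNA was higher with E than untreated in 8 of 10 lines (log2 difference 0.63 ± 0.138, SE, adjusted p = 0.000762, limma). The epithelial markers EPCAM, CDH1, KRT8, KRT18 and KRT19 summed to between 4251 and 5955 TPM in all libraries. The lung adenocarcinoma markers NKX2-1, SFTPB and NAPSA were nearly absent, with means of 0.0509, 0.300 and 2.004 TPM. Of markers of other cells, PTPRC and COL3A1 had means of 0.381 and 0.00692 TPM. PECAM1 fell from 6.49 to 2.20 TPM with E (log2 difference -1.27 ± 0.116, SE, adjusted p = 3.11e-07, limma with the filter at 1 TPM), while COL1A1 was present at 42.6 TPM and rose with E (log2 difference 1.03 ± 0.0707, SE, adjusted p = 4.26e-09, limma).

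Histones are the proteins around which DNA is wound. 2 copies each of H2A, H2B, H3 and H4 form the nucleosome core, and H1 binds the linker DNA between cores. Most of these genes are made in S phase, when new DNA needs packing. Their messages as a rule carry no poly(A) tail and end instead just after a short stem-loop that SLBP (stem-loop binding protein) recognises. A smaller, polyadenylated pool arises when transcription runs past the stem-loop to a downstream poly(A) signal, and it is known from cells that have left the cycle. H1-10 is a linker histone whose message is polyadenylated and not tied to replication. A library made from polyadenylated RNA is meant to read the tailed pool, so the levels below are not those of all histone RNA. TPM does not show which of the messages read carried a tail.

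The stem-loop was sought in the GENCODE 29 models as a run of 16 bases with a stem of 6 pairs (wobble pairs allowed, G with C as the outer 2 pairs) around a loop of 4 bases that opens with 2 thymines. It was present in 50 of the 136 member transcripts, against 0.769% of all transcripts. The sites of the members that carry the results are shown 5′ to 3′ on the transcript strand, since what lies beyond them tells the models apart. The stem-loop is in capitals, with 5 bases on each side.
H2AC18 and H2AC19: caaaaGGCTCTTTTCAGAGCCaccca
H2BC5 (HIST1H2BD-202): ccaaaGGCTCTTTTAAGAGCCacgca
H2AC6: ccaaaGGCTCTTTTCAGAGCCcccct
H2BC21: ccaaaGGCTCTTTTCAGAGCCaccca
H2AC25: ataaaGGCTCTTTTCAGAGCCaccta
H4C11: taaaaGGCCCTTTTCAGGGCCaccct
H4C9: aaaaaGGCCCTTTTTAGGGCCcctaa
In the model of H2AC18 and H2AC19 only 35 bases follow the stem-loop, and in HIST1H2BD-202 of H2BC5 only 39. In H2AC6 the model runs on for 1128 bases, in H2BC21 for 1729, in H2AC25 for 390 and in H4C9 for 212. The models of H1-2, H2BC12, H2AC17 and H4C4 hold the coding sequence alone, so no end can be read from them. A poly(A) signal (AATAAA or ATTAAA in the last 60 bases) was present in 38 of the member transcripts, and in 31.7% of all transcripts.

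Erlotinib against untreated cells asks how the histone messages of EGFR-driven cells respond when EGFR is blocked. Summed over all 100 genes, histone TPM went from 714 ± 75.6 (SD, n = 10) untreated to 1687 ± 194 (SD, n = 10) with E. The lowest E library (1448 TPM) lay above the highest untreated one (820.2 TPM). The log2 ratio within a line was 1.24 ± 0.0892 (SD, n = 10 lines) and was above 1.13 in every line. As a share of all TPM this is 0.0714% untreated and 0.169% with E. By class, the log2 ratio was 1.62 ± 0.114 for H2A, 1.51 ± 0.323 for H4, 1.36 ± 0.0867 for H2B, 0.93 ± 0.142 for H1 and 0.77 ± 0.333 for H3 (SD, n = 10 lines). In the H1 sum, H1-10, which is not tied to replication, held 185 of 300 TPM untreated and 234 of 574 TPM with E (means). All these sums were given no test.

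Of the 19 histone genes over 10 TPM, 16 rose with E and none fell (limma with line as a block, adjusted p under 0.05), where 36.4% of all 9085 genes tested rose and 42.6% fell. The median log2 difference was 1.59 over the 19, beside -0.04 over all genes tested. A gene can pass the filter through its E and EA libraries alone, so the count is not independent of the direction. Of the 12 with an untreated mean of at least 10 TPM, 9 rose, with a median of 0.89, and of the 7 with a lower untreated mean all rose. With the filter at 1 TPM, 51 histone genes were tested: 32 rose, beside 35.5% of all genes, and 2 fell, beside 36.3%. Without a filter, 34 of 86 rose, beside 20.7%, and 4 fell, beside 19.8%. In 9 of the 19 genes every E library lay above every untreated one, which held for 14.9% of all genes over 10 TPM. Among the 9, H4C16, H2AC25, H2BC4, H2BC21 and H4C8 had untreated means under 10 TPM and passed the filter through treated libraries. This count, too, is thus not independent of the direction. With the filter at 1 TPM this was so for 15 of 51, beside 12.6% of all genes.

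H1-2, a replication-dependent linker histone (chr6:26055787-26056428 of GRCh38, minus strand, 1 exon), rose in every line. Its lowest, median and highest TPM were 33.8, 40.6 and 55.2 untreated, 191, 230.2 and 374 with E, and 129.9, 197 and 248 with EA. No E library overlapped an untreated one, and KO held the highest value in both groups. The log2 difference between E and untreated was 2.49 ± 0.0444 (SE, 10 lines, adjusted p = 1.17e-14). H1-2 made up 5.92% of the histone sum untreated and 14.4% with E.

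H1-10, a replication-independent linker histone, moved far less. By group mean it was the most abundant of the 100 genes in untreated cells, at 155, 188 and 215 TPM (lowest, median, highest), and lay at 195, 235 and 263 with E and at 158, 221 and 266 with EA. The groups overlapped, and PAR was the 1 line in which E was not above untreated. It rose by 0.33 ± 0.0547 (SE, adjusted p = 5.31e-05).

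Among the H2B genes, H2BC5 (chr6:26158146-26171349, plus strand) had the largest difference of the 19 on the log2(TPM + 1) scale, with H1-2 next. As a ratio of mean TPM with E to untreated, H4C8 was higher (6.30, against 6.15 for H2BC5). The lowest, median and highest TPM of H2BC5 were 27.5, 30.8 and 48.5 untreated, 167, 210.1 and 268 with E, and 161, 181 and 196 with EA. The E and untreated libraries were far apart, and the log2 difference was 2.60 ± 0.0562 (SE, adjusted p = 4.77e-14). H2BC12 (chr6:27146418-27146798, minus strand) was the most abundant H2B gene, at 105, 125 and 218 TPM untreated, 193, 229 and 395 with E, and 178, 231 and 369.9 with EA. PAR stood above the other lines in all 3 groups, and its untreated value exceeded the lowest E value. The gene rose in all 10 lines by 0.88 ± 0.0359 (SE, adjusted p = 1.37e-11). Of the 31-base words of its model 13.7% occur in no other transcript, so part of its value may belong to transcripts that share the rest.

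H2BC21 went from a mean of 4.89 to 28.0 TPM (2.30 ± 0.0707, SE, adjusted p = 7.66e-13) and H2BC4 from 8.59 to 27.7 TPM (1.598 ± 0.0779, SE, adjusted p = 8.87e-11). Both rose in 10 of 10 lines without overlap between the groups. H2BC11 did not pass the test: it had means of 14.6 and 17.2 TPM and a difference of 0.27 ± 0.157 (SE, adjusted p = 0.131), with 7 of 10 lines higher.

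**Figure D1:**
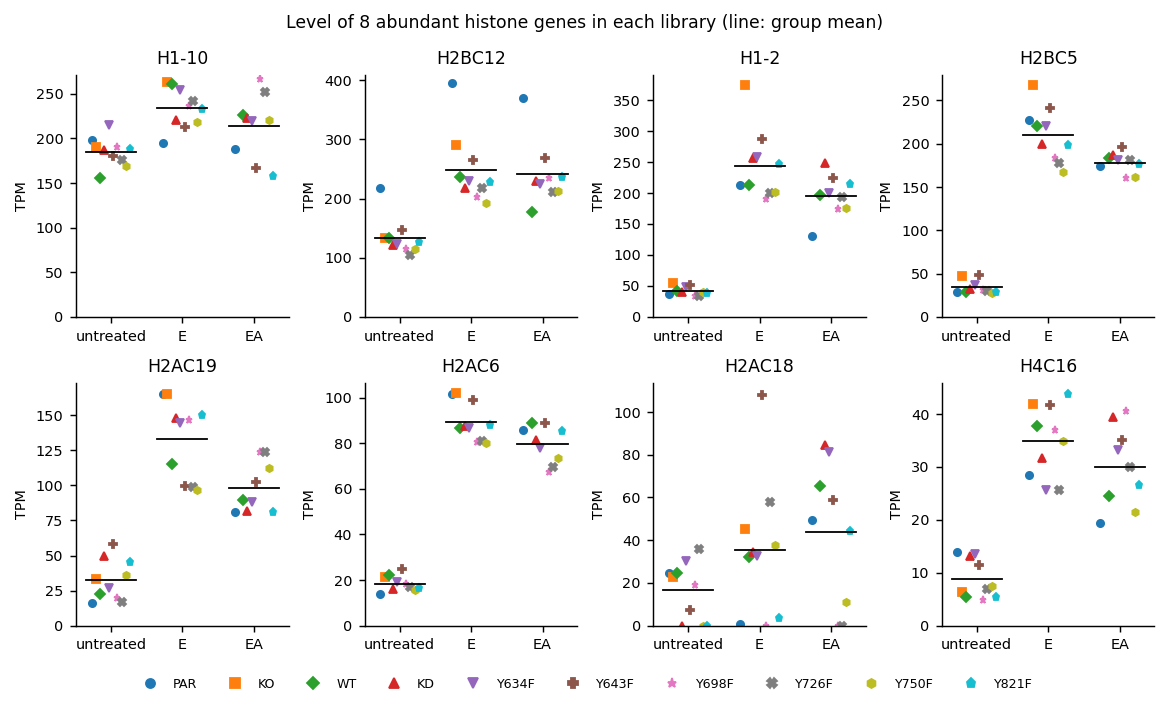
TPM of 8 abundant histone genes in each of 29 libraries, untreated, with E and with EA, with 1 symbol per line and a bar at the group mean. H1-2, H2BC5, H2AC6 and H2AC19 show no overlap between untreated and E, H1-10 shifts little, PAR is the highest point for H2BC12 in all 3 groups, and H2AC18 lies at or near 0 in some libraries of each group.

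Among the H2A genes, H2AC6 (chr6:26124145-26139116, plus strand) was at 13.8, 17.6 and 24.7 TPM untreated, 80.0, 87.1 and 102 with E, and 67.3, 81.4 and 88.8 with EA. Its E and untreated libraries did not overlap, and it rose by 2.23 ± 0.0698 (SE, adjusted p = 9.31e-13). H2AC25, which stands apart from the large clusters on chromosome 1, went from 5.24 to 32.0 TPM (2.39 ± 0.0691, SE, adjusted p = 4.65e-13). H2AC17, whose model is 12.9% unique, had means of 12.9 and 15.7 TPM and missed the threshold (0.29 ± 0.128, SE, adjusted p = 0.0536).

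H2AC18 and H2AC19 are near-identical genes on chromosome 1, with 0% and 2.8% unique 31-base words, and their reads cannot be told apart. Listed singly, H2AC19 was at 15.9, 29.9 and 58.5 TPM untreated, 96.9, 145 and 165 with E, and 80.8, 89.6 and 124 with EA. H2AC18 was at 0, 21.04 and 35.8 TPM untreated, 0.0199, 33.4 and 108 with E, and 0, 49.4 and 84.6 with EA. H2AC19 rose (2.10 ± 0.191, SE, adjusted p = 1.04e-07), while H2AC18 had a difference of 1.04 ± 0.83 (SE, adjusted p = 0.264) and line values from -4.30 to 5.28. Summed, the pair was at 36.3, 48.2 and 66.0 TPM untreated and 135, 161 and 210.5 with E, without overlap. The summed difference was 1.77 ± 0.151 (SD, n = 10 lines) and above 0 in all 10 (p = 0.00195, two-sided exact permutation test by sign flips over lines, the smallest p that 10 lines allow). Summing was chosen after the single values had been seen.

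The 6 H4 genes over the filter rose, but 4 of them (H4C8, H4C16, H4C11 and H4C4) had untreated means under 10 TPM and passed the filter through the treated libraries. H4C8 went from 4.18 to 26.3 TPM (2.42 ± 0.0800, SE, adjusted p = 1.58e-12), H4C16 from 8.86 to 34.8 TPM (1.93 ± 0.190), and H4C11 from 7.53 to 23.0 TPM (1.59 ± 0.152). H4C4 went from 4.90 to 13.9 TPM (1.55 ± 0.345, SE, adjusted p = 0.000816), and its line values ran from -0.61 in Y726F to 4.16 in Y698F, where it was listed at 0 untreated. The others, H4C14 (0.89 ± 0.108) and H4C9 (0.55 ± 0.0572), which were over 10 TPM untreated, moved least. H4C14 and H4C11 have near-identical copies (1.4% and 17.8% unique words).

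**Figure D2:**
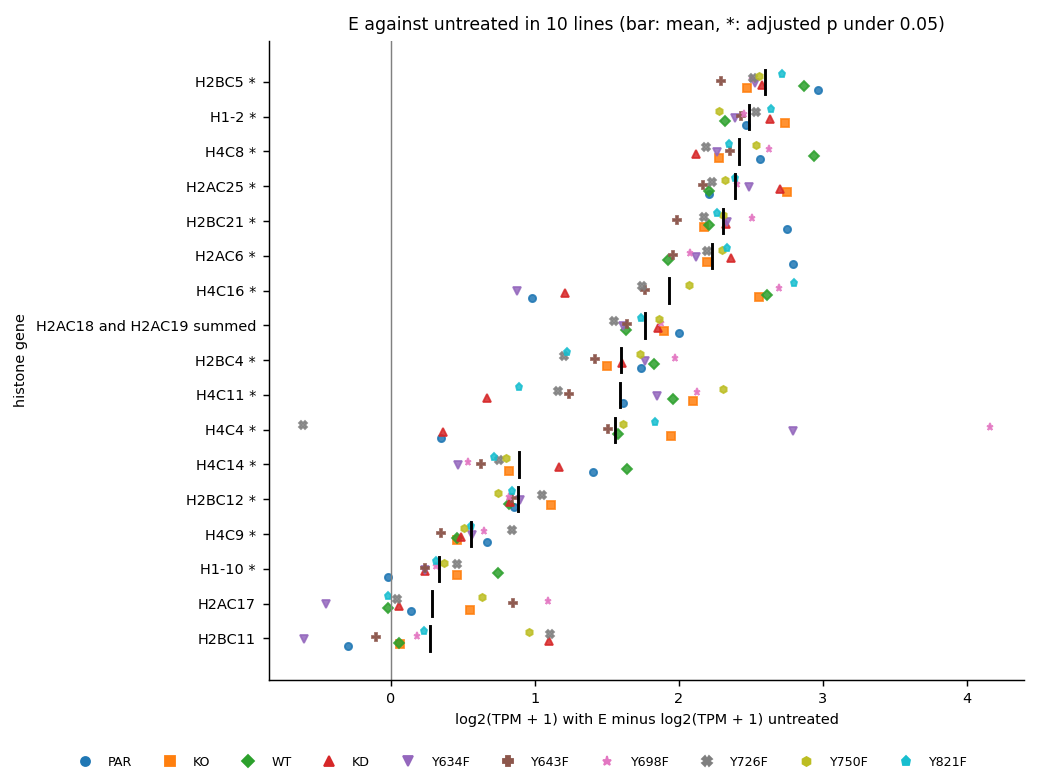
Difference in log2(TPM + 1) between E and untreated in each of 10 lines (symbols) for histone genes over 10 TPM, with H2AC18 and H2AC19 shown as their sum and left without an asterisk because they were tested otherwise. Bars are means over lines, from 2.60 for H2BC5 down to 0.27 for H2BC11, and an asterisk marks an adjusted p under 0.05.

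No H3 gene had a mean of 10 TPM over all 29 libraries. H3C6 came nearest with a mean of 7.98 TPM over all libraries, followed by H2AC13 (7.68) and H2AC8 (6.56), and the remaining members under the filter had lower means down to 0. In the fit with the filter at 1 TPM, H3C6 rose from 1.68 to 11.02 TPM (2.18 ± 0.145, SE, adjusted p = 1.09e-08), H2AC13 rose by 1.18 ± 0.164 and H2AC8 by 1.23 ± 0.216. Of the H3 genes tested there, 3 of 7 rose and none fell, against 8 of 10 H4, 10 of 15 H2B, 7 of 14 H2A and 4 of 5 H1 genes, all beside 35.5% of all genes. The H3 and H2A shares lie near that background, and the difference between classes was not tested. The 2 genes that fell, named after their values had been seen, were H1-4, a replication-dependent linker histone (3.74 to 1.73 TPM, -0.80 ± 0.162, SE, adjusted p = 0.000567, lower in 10 of 10 lines), and H2AC20 (4.82 to 1.65 TPM, -1.11 ± 0.252, SE, adjusted p = 0.00138, lower in 9 of 10 lines). Both stand at levels where the pseudocount of 1 understates the change.

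By place in the genome, 44 members lie in the first cluster on chromosome 6 (25726132 to 26322292, GRCh38), 23 in the second (27125897 to 27893843) and 13 in a cluster on chromosome 1 (149782689 to 149887916). In the fit at 1 TPM, 14 of 21 genes of the first cluster rose and 1 fell, with a median of 1.55. In the second cluster 7 of 15 rose and none fell, with a median of 0.40, and in the chromosome 1 cluster 6 of 10 rose and 1 fell, with a median of 0.96. Beside the 35.5% of all genes that rose, the share in the second cluster is near the background. These are descriptions with no test of the difference, and the clusters hold unequal shares of each class.

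Many H2A and H2B genes lie head to head and share the DNA between them. Of 17 such pairs with starts within 1000 bases, 10 had both members at 1 TPM or more. Both members rose in 3 pairs, 1 of the pair passed in 3, neither passed in 3, and 1 pair went opposite ways. Of all genes at that filter 35.5% rose and 36.3% fell, and whether pairs move together was not tested. The entries for H2AC18 with H2BC19P and for H2BC20P with H2AC19 depend on how reads were split between H2AC18 and H2AC19. In H2BC4 and H2AC6 (219 bases apart) both rose, as did H2BC8 and H2AC8 (283 bases) and H2AC7 and H2BC7 (277 bases). H2BC21 and H2AC20 (323 bases) went opposite ways. H2BC21 ran from 3.45 to 6.70 TPM untreated and from 24.3 to 35.6 with E, while H2AC20 ran from 1.94 to 8.11 untreated and from 0.490 to 2.59 with E. The model of H2BC21 reads through to a distant poly(A) signal, and that of H2AC20 is coding sequence alone.

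**Figure D3:**
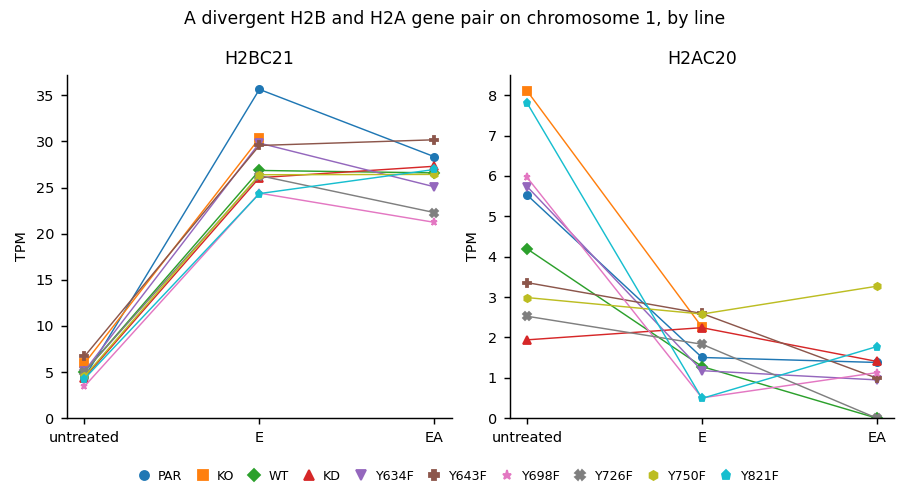
TPM of H2BC21 (left) and H2AC20 (right), head-to-head genes on chromosome 1, in each line untreated, with E and with EA. H2BC21 goes up in all 10 lines with E, and H2AC20 goes down in 9 of 10 from a level never above 8.11 TPM.

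The promoters of 4 genes are shown from RefSeq (GRCh38.p14), each from 250 bases before to 50 bases after the gene's start and read on the gene's own strand. They were picked because H2BC21 shares its window with a gene that moved the other way, and H1-2, H2BC5 and H4C8 had the largest differences of their classes on the log2(TPM + 1) scale. Capitals mark 3 motifs on either strand: the octamer ATTTGCAT (ATGCAAAT on the other strand), the box CCAAT, read as ATTGG on the opposite strand, and the box TATAAA, which turns into the letters TTTATA when read from the opposite side and may overlap itself there.
H2BC21 (chr1:149886633-149886932, minus strand): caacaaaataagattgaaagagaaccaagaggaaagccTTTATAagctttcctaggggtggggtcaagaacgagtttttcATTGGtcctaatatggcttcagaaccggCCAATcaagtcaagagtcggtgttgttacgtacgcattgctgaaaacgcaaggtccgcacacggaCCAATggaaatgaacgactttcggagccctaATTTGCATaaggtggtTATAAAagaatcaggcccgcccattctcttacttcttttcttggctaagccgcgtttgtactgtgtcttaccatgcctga
H1-2 (chr6:26056421-26056720, minus strand): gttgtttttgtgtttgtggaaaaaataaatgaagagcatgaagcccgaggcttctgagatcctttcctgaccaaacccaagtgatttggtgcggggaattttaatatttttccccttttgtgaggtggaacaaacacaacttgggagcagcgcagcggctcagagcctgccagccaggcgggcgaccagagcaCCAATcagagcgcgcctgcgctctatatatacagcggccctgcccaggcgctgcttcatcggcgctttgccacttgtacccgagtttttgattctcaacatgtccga
H2BC5 (chr6:26157871-26158170, plus strand): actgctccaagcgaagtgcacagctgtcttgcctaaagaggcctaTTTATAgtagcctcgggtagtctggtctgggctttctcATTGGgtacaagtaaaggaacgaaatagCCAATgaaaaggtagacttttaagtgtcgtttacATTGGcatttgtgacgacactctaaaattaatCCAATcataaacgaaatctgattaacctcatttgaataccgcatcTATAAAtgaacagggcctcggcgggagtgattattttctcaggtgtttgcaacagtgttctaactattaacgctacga
H4C8 (chr6:26285485-26285784, minus strand): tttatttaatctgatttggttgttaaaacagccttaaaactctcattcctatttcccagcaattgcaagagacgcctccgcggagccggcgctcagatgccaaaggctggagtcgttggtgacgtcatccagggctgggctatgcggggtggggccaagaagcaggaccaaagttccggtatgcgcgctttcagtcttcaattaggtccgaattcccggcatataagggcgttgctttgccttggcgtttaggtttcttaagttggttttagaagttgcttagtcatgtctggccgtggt
The windows of H2BC21 and H2AC20 have 265 bases in common, so the same octamer, CCAAT and TATAAA letters lie before both. H1-2 held 1 CCAAT and neither of the other motifs, H2BC5 held CCAAT 4 times and TATAAA 2 times without the octamer, and H4C8 held none. Of the 69 histone genes with a promoter in the table, 26 (37.7%) held the octamer, against 1.8% of the 27305 genes listed. The octamer stood in 14 of 18 H2B and 11 of 16 H2A promoters and in none of 13 H4 promoters. CCAAT was present in 58 of 69 (84.1%, against 35.7% of all) and TATAAA in 45 of 69 (65.2%, against 12% of all). A match of letters is not a bound site.

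At the level of transcripts, 17 member transcripts had a mean of at least 10 TPM, and 15 rose with E, where 33.8% of the 10697 transcripts tested rose. As with the genes, a transcript can pass the filter through its E and EA libraries alone, so this count is not independent of the direction. With the filter at 1 TPM, 42 of 66 rose and 2 fell, beside 22.5% and 22.2% of all transcripts. Sorted by their models, 21 of the 25 that run past the stem-loop rose, 6 of the 9 that end at it, 10 of the 18 without a stem-loop (1 fell) and 5 of the 14 that hold coding sequence alone (1 fell). Medians were 1.13, 1.23, 0.59 and 0.34, and no test compared them. The summed TPM of models that run past the stem-loop went from 78.0 ± 13.8 to 254 ± 28.95, and that of models ending at it from 77.6 ± 12.5 to 254 ± 37.3 (SD, n = 10 libraries each). Most of the sum of models ending at it came from H2AC18 and H2AC19, together 49.0 TPM untreated and 168 TPM with E. A poly(A) signal near the end was present in 4 of the 9 models that end at the stem-loop and in 16 of the 25 that run past it.

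Some genes gave several forms of message. H2BC5 has a spliced form of 789 bases without a stem-loop and with an AATAAA signal (HIST1H2BD-201) and an unspliced form of 496 bases that ends at the stem-loop (HIST1H2BD-202). The spliced form went from 25.4 to 179 TPM (2.80 ± 0.0677, SE, adjusted p = 1.42e-11) and the short one from 8.82 to 31.7 TPM (1.71 ± 0.175, SE, adjusted p = 2.36e-06), so both rose. The spliced share was 73.6 ± 8.91% untreated and 84.9 ± 4.93% with E (SD, n = 10), higher in 9 of 10 lines, but missed the threshold (adjusted p = 0.0651, exact permutation test by sign flips). In H2BC4 the spliced form without a stem-loop (HIST1H2BC-201) went from 5.06 to 21.4 TPM (1.89 ± 0.0919). It took 59.4 ± 9.48% of the gene untreated and 76.8 ± 6.51% with E (exact permutation test, adjusted p = 0.0391). The other H2BC4 form, HIST1H2BC-202, runs past the stem-loop. H2BC18, a gene under the filter whose name was chosen after its values were seen, had its read-through form HIST2H2BF-201 at 27.4 ± 6.26% untreated and 46.7 ± 10.8% with E (exact permutation test, adjusted p = 0.0391). Another H2BC18 form, HIST2H2BF-205, has no stem-loop. Neither the H2BC4 nor the H2BC18 share is shown to grow at the cost of a form that ends at the stem-loop. In H2AC6 the main form HIST1H2AC-201, which reads through, held 79.5% untreated and 84.0% with E (exact permutation test, adjusted p = 0.797). These shares were computed for the 10 genes with at least 2 forms over 1 TPM, and adjusted over 20 comparisons, a family set up after the transcript values had been seen. The leading form was the one with the highest mean TPM over all 29 libraries, most of them treated. A form that gains with E is thus more likely to be picked, so these counts are not independent of the direction. With E, 2 of the 10 passed, and the mean share of the leading form was higher in 7 and lower in 3, among them H4C8 (41.2% untreated and 31.1% with E, exact permutation test, adjusted p = 0.303). A TPM split among overlapping forms is kallisto's estimate, not a count of ends.

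**Figure D4:**
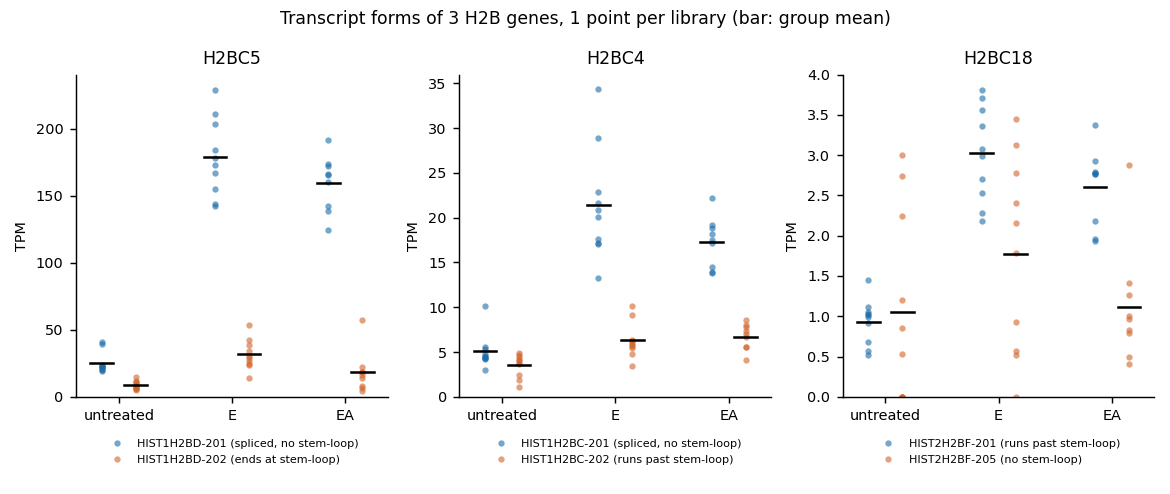
TPM of 2 forms each of H2BC5, H2BC4 and H2BC18 in every library (points) with group means (bars), on an axis from 0 for each gene. Blue is the spliced form without a stem-loop in H2BC5 and H2BC4 and the read-through form in H2BC18. The other form ends at the stem-loop in H2BC5, runs past it in H2BC4 and has none in H2BC18. The blue mean lies above the other untreated and with E in H2BC5 and H2BC4. In H2BC18 the blue mean goes from 0.933 to 3.02 TPM with E.

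Other transcripts over 10 TPM are the only form of their gene at that level. HIST1H1C-201 (H1-2), HIST1H2BK-201 (H2BC12), HIST3H2A-201 (H2AC25), HIST2H2BE-201 (H2BC21), HIST1H4J-201 (H4C11), HIST1H4I-201 (H4C9), HIST1H4D-201 (H4C4), H1FX-201 (H1-10), HIST2H2AA4-201 (H2AC19), HIST1H2AC-201 (H2AC6) and HIST2H4A-201 (H4C14) all rose. HIST1H2AM-201 (H2AC17, adjusted p = 0.0785) and HIST2H2AA3-201 (H2AC18, adjusted p = 0.323) did not pass.

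The genes that accompany histone synthesis went mostly the other way with E. All 24 S phase genes of the list fell, with CDC6 (origin licensing, 55.0 to 6.71 TPM, -2.90 ± 0.1004), MCM10 (28.3 to 3.60 TPM, -2.75 ± 0.136) and MCM6 (46.1 to 6.49 TPM, -2.69 ± 0.0891) lowest. Their summed level ran from 1972 to 2132 TPM untreated and from 392 to 605 TPM with E, and their part in the histone result was not tested. Of the genes for histone transcription and 3′ end processing, 18 of 24 tested fell and 2 rose, beside 42.6% and 36.4% of all genes. SLBP went from 95.9 to 39.6 TPM (-1.26 ± 0.0349, SE, adjusted p = 3.28e-13), E2F1 fell by 2.61 and CCNE1, the cyclin that drives entry into S phase, by 1.95 on the log2 scale. HINFP, an activator of H4 genes, rose by 0.55 ± 0.0788, and TUT7, a uridylyl transferase that acts in histone message decay, by 0.42 ± 0.0650. NPAT, the scaffold of histone locus bodies, was at 7.15 and 6.16 TPM (-0.20 ± 0.121, SE, adjusted p = 0.149, filter at 1 TPM), and LSM11, a subunit of the U7 processing particle, fell from 2.87 to 1.30 TPM (-0.75 ± 0.0781, SE, adjusted p = 1.15e-06, filter at 1 TPM).

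Of 29 histone chaperones, 23 fell and 2 rose, against the same background. MCM2 (129.9 to 31.9 TPM, fell by 1.999 ± 0.0480), CHAF1A (-1.91 ± 0.0826) and MMS22L (-1.75 ± 0.0864), all of which act at replication forks, fell most. ATRX (0.46 ± 0.0833) and VPS72 (0.24 ± 0.0559) rose. Among the variant histones listed apart from the member genes, 2 of 8 rose and 5 fell, near the same shares over all genes. H2AJ went from 218 to 374 TPM (0.78 ± 0.0398) and H3-3A from 556 to 813 TPM (0.55 ± 0.0251), while H2AX (-1.40 ± 0.0617), H2AZ1 (-1.30 ± 0.0353) and the centromeric CENPA (-1.17 ± 0.0718) fell. The epithelial markers were split, as CDH1 (0.67) and KRT19 (0.39) rose and KRT18, EPCAM and KRT8 fell by 0.64, 0.44 and 0.31 on the log2 scale.

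EA against E asks what the AXL-activating antibody adds when EGFR is blocked. It was tested in the 8 lines with an AXL that can signal (PAR, WT and the 6 tyrosine mutants), and its E libraries are also in the comparison with untreated cells. The paper reports that only part of the cells in the transduced lines express AXL. It also reports less activated receptor in WT and the mutants than in PAR, so the 8 lines are not alike in AXL activity. In proliferation and cell death, it describes Y643F and Y750F as behaving like KO or KD cells. According to the paper, E activates AXL even without the antibody. Neither comparison can therefore tell EGFR block and AXL activity fully apart. Of the 19 histone genes, 3 fell with EA and none rose, where 0.473% of the 9085 genes fell and 1.88% rose. In all genes that is 171 higher and 43 lower, or 133 and 72 once library medians were centred. With the filter at 1 TPM 1 of 51 fell, beside 0.0638% of all genes. The differences were below 0 in 15 of the 19 genes, with a median of -0.15 beside 0.02 over all genes. The 19 genes were measured in the same libraries, so these are not 19 independent signs, and no share of all genes below 0 stands beside them. The histone sum was 1504 ± 75.2 TPM with EA (SD, n = 9), and its log2 ratio to E was -0.13 ± 0.0938 (SD, n = 8 lines), lower in 7 of 8. The EA levels lack KO, which held the highest sum with E (2098 TPM). Group levels and ranges with E and EA, here and above, thus cover unlike sets of lines, while the ratio is within lines.

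H2AC25 fell by 0.29 ± 0.0503 on the log2 scale (SE, adjusted p = 0.0194), H1-2 by 0.27 ± 0.0623 (adjusted p = 0.0484) and H2BC5 by 0.20 ± 0.0452 (adjusted p = 0.0433), in 8, 8 and 7 of 8 lines. For H1-2 the steepest line was PAR (-0.70) and the shallowest Y726F (-0.05). The ranges of E and EA overlapped for each of the 3 genes. In the KD line, which has 1 library each and so no error, the differences were -0.07 for H2AC25, -0.05 for H1-2 and -0.10 for H2BC5. Whether KD differs from the other lines was not tested. All 3 calls were lost without the replicate block (adjusted p = 0.0846, 0.355 and 0.312), leaving out Y634F or Y643F left no call, and leaving out PAR, WT, Y698F, Y750F or Y821F left 1.

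H2AC6 was near the threshold (-0.14 ± 0.0400, SE, adjusted p = 0.0773) and was lower in 7 of 8 lines. The summed H2AC18 and H2AC19 had a difference of -0.21 ± 0.158 (SD, n = 8 lines), and 7 lines lay below 0 (p = 0.0234, exact permutation test by sign flips, two-sided and without adjustment). H4C11 (-0.21), H4C8 (-0.25), H4C16 (-0.25) and H2BC4 (-0.24) had differences of a like size with larger errors and did not pass. H2BC12, the most abundant H2B gene, differed by -0.02 ± 0.0568 (SE, adjusted p = 0.867). None of the 17 member transcripts passed (limma), 6 had an unadjusted p under 0.05, and only 3 of all 10697 transcripts passed (0.028%).

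**Figure D5:**
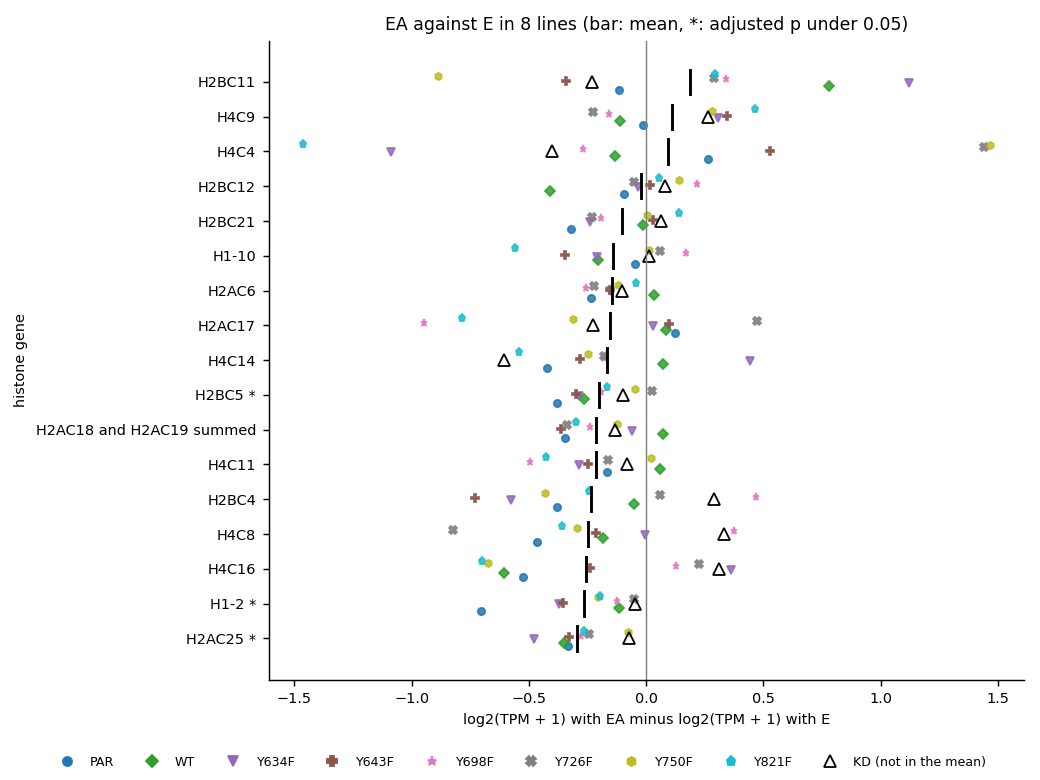
Difference in log2(TPM + 1) between EA and E in 8 lines (coloured symbols) for histone genes over 10 TPM, with H2AC18 and H2AC19 as their sum. Bars are means, the open triangle is KD, and asterisks mark H2AC25, H1-2 and H2BC5, whose means lie at -0.29, -0.27 and -0.20.

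Of the S phase genes, 12 of 24 rose with EA in the same libraries, 12 did not pass and none fell, beside 1.88% of all genes that rose. The largest differences were in CDC6 (0.67 ± 0.115, SE, adjusted p = 0.0194), RRM2, a subunit of ribonucleotide reductase (0.64 ± 0.138, adjusted p = 0.0377), and TYMS, thymidylate synthase (0.59 ± 0.102, adjusted p = 0.0207). Their summed level was 469 to 751 TPM with EA, and its part in the histone values was not tested. SLBP (0.19 ± 0.0438, adjusted p = 0.0461) and E2F1 (0.56 ± 0.130, adjusted p = 0.0475) rose as 2 of the 24 transcription and processing genes, while NPAT (0.08 ± 0.114) and LSM11 (0.07 ± 0.101) did not pass. Of the chaperones 4 of 29 rose, with MCM2 (0.34), HAT1, a histone acetyltransferase (0.26), and SET (0.21) highest. None of the 8 variant histones passed (limma). With the filter at 1 TPM, and so more genes tested, 3 S phase genes and none of the processing genes or chaperones passed, although their medians stayed above 0. The 8 genes named here also missed the threshold without the replicate block, with adjusted p from 0.0699 for CDC6 to 0.268 for RRM2.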

How the data were processed

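RNA of the 29 PC9 libraries was sequenced by Novogene. The authors deposited 1 table of TPM for 188753 transcripts. The submitters' processing notes name kallisto and GRCh38, while the kallisto version and annotation release are not given in the sources used here. Depth is unknown, and TPM shows each transcript only as a share of its library. Transcripts were matched by identifier to GENCODE 29 (169797 matched, with at least 97.01% of TPM) and summed per gene.

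Differences were fitted with limma 3.58.1 (R 4.3.3) on log2(TPM + 1) for genes averaging 10 TPM or more over the libraries. Line entered as a block, and p-values were adjusted by Benjamini-Hochberg over every gene tested. Fold changes are on that scale, which understates low genes. The block rests on the lines being the same cells, and deviations of the same line correlated at 0.0957 to 0.600 between E and untreated and at 0.12 to 0.739 between EA and E, although 4 of 10 and 1 of 8 lines correlated more with some other line. With 1 library for each line and treatment, p-values measure spread between lines, which all come from 1 parental line. The fit was tested on simulated data.

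The member genes and gene lists were chosen with earlier results of these data known. Named were the members over the filter (1 that the counts include is not reported here), the 3 highest under it, up to 3 genes a list that rose or fell most, SLBP, NPAT, LSM11 and AXL. Alternatives covered pseudocount, filters, scaling, trend, weights, block and lines left out.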

Additional observations from a re-analysis of the deposited data

Results flagged for a closer look

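Of 130 sets of 8 to 10 values screened, 10 held 1 value far from the others by Dixon's test, where chance flags about 1 set in 20. PAR stood above the other lines for H2BC12 in all 3 groups, at 218 TPM untreated (next 147), 395 TPM with E (next 290.1) and 369.9 TPM with EA (next 268). PAR was also far above the rest with E for H2BC21 (35.6 TPM, next 30.3) and H4C9 (25.5 TPM, next 18.3), and its log2 difference between E and untreated for H2AC6 was 2.79 (next 2.37). KO was far above the rest with E for H1-2 (374 TPM, next 286), for H2AC25 (50.4 TPM, next 36.6) and for the H1 sum (750.1 TPM, next 622). KD was far above the rest with EA for H2AC25 (34.8 TPM, next 27.7). Each is 1 library, and the sets share libraries and genes.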

How the results depend on the processing

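With E against untreated, the 16 histone genes that rose became 32 of 51 with the filter at 1 TPM, 7 of 7 at 10 TPM in every library and 34 of 86 without a filter, since other numbers of genes were tested, and lay between 16 and 18 with 1 line left out. Of 408 alternative values of single genes 400 kept their call and direction and 8 newly passed. The 15 transcripts became 42 of 66 at 1 TPM. With EA against E, the 3 genes that fell became 1 at 1 TPM, 1 at 10 TPM in any library, 0 without a filter (limma, 12 at an unadjusted p under 0.05), 1 without the variance trend and 1 with quantile normalization. Without the replicate block the count was 0 (limma, 4 at an unadjusted p under 0.05), and the block changed no call of a histone gene with E against untreated. With 1 line left out it ran from 0 (without Y634F or Y643F) to 3. The cause was not tested. The adjusted p ranged over alternatives from 0.0397 to 0.355 for H1-2, 0.0194 to 0.0846 for H2AC25 and 0.0315 to 0.312 for H2BC5. Over all genes, 171 higher and 43 lower became 9 and 0 without the block, 58 and 9 at 1 TPM and 5 and 1 without a filter, and without Y634F 10 and 0. None of the histone transcripts passed, against 1 with quantile normalization and 1 without mitochondrial genes.

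Some differences between EA and E that did not pass changed sign. H2AC18 and its transcript HIST2H2AA3-201 (0.23) gave -0.073 at a pseudocount of 0.1 and -0.41 to 1.10 with 1 line left out, and H2AC18 gave -0.22 with array weights and -0.21 summed with H2AC19 (an alternative chosen after seeing the data). H2BC12 and HIST1H2BK-201 gave -0.054 to 0.035 with 1 line left out, and HIST1H2BK-201 gave 0.00432 with quantile normalization. H4C4 and HIST1H4D-201 gave -0.10 to 0.32 with 1 line left out. The alternative values of the class sums (78 for E and 66 for EA) all moved by less than 1 SD. Depth is unknown, so counting error could not be given, and members under 1 TPM were not read.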
